A study of Caenorhabditis elegans with 95 samples.

Results

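The genes described here are a chosen list of *C. elegans* homologs of circadian clock genes and genes of the PAS family: *lin-42*, *tim-1*, *aha-1*, *kin-20*, *gsk-3*, *ahr-1*, *hif-1* and *cky-1*. Their loci are F47F6.1, Y75B8A.22, C25A1.11, F46F2.2, Y18D10A.5, C41G7.5, F38A6.3 and C15C8.2, in that order. They were listed by gene symbol, with earlier results of these data known. Every probe set whose annotation carries only that symbol was taken. This gave 12 of the 22548 probe sets of the array for 8 of the 17138 genes it names. *lin-42*, *aha-1*, *kin-20* and *gsk-3* have 2 probe sets each and the other 4 genes have 1 each. The list is not complete: the bHLH-PAS gene *hlh-34* and *atf-2*, the homolog of *vrille*, are on the array too and are described with other lists below. Wild-type Bristol N2 adults, taken whole, were hybridised to 95 Affymetrix arrays, 1 array for each of hours 2, 6, 10, 14, 18 and 22 of a day in each time series. In LD, the last day of 12 h of light and 12 h of darkness at 18°C, there were 3 time series and 18 arrays, and in DD, constant darkness at 18°C after that entrainment, also 3 time series and 18 arrays. In WC, the last day of 12 h at 25°C and 12 h at 15°C in darkness, there were 5 time series and 30 arrays, and in CC, constant 15°C after that entrainment, 3 time series and 18 arrays. The controls, kept in darkness at 18°C with no entrainment, had 2 time series and 11 arrays. All groups were fed *E. coli* HB101 and carried 25 µM FUDR, which blocks production of progeny, from the L4 stage. Each experiment used 2 populations entrained to opposite cycles in different incubators, and the labels do not say which hours came from which population. Hours of 1 time series are therefore not independent cultures, and 5 of the arrays stand for 2 biological replicates each.

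In flies and mammals the clock is a loop in which a pair of bHLH-PAS activators switches on genes of the PERIOD and TIMELESS or CRYPTOCHROME families, whose products then block the activators, while kinases such as DOUBLETIME and SHAGGY set how long those products last. PAS domains let such proteins pair with each other and, in some, sense a ligand or oxygen. In worms the homologs are best known for other work: LIN-42 for the timing of larval moults and cell fates, TIM-1 for the cohesion of chromosomes, and AHA-1 as the common partner of AHR-1, HIF-1 and CKY-1.

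A value here is a score, not an expression level: the authors took log2 intensities relative to the mean of the time series and set every array to mean 0 and SD 1, so that a score of 1 is 1 SD above that mean among all probe sets of the array. Levels cannot be compared between genes on this scale. On each array many probe sets share nearly the same score, called the floor below. Probe sets that were not detected lie there, but one whose level stays steady can lie there too. A probe set was tested only where its root mean square distance from the floor over the arrays of the fit was above 0.1. Tests were limma fits over all such probe sets, each with a term for its time series, and a call is a Benjamini-Hochberg adjusted p under 0.05.

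No probe set of these genes passed the test for a 24-h wave in any of the 5 conditions. This was 0 of 10 tested in LD, where 1.00% of all tested probe sets were called, 0 of 11 in DD, where 0% were called, 0 of 12 in WC, where 6.29% were called, 0 of 10 in CC, where 0.0121% were called, and 0 of 11 in the controls, where 0% were called. At an unadjusted p under 0.05 there were 2 each for LD, DD and WC and 0 for CC and the controls. Over all tested probe sets there were 4213 of 15989 in LD, 2205 of 16406 in DD and 3555 of 17342 in WC. There were 1612 of 16470 in CC and 372 of 16579 in the controls. The comparison of hours 2 to 10 with hours 14 to 22, which is light against darkness in LD and 25°C against 15°C in WC, called 0 of them too, while over all tested probe sets it called 11.5% for LD, 3.84% for WC, 0.164% for CC and 0% for both DD and the controls. At an unadjusted p under 0.05 there were 5 in LD and 1 each in DD and WC. Over all tested probe sets there were 5160 of 15989 in LD, 2537 of 16406 in DD and 2920 of 17342 in WC. A p that misses the threshold does not show that a gene was constant. Calls were made between whole days. On the last LD day *kin-20*, *aha-1* and *tim-1* had lower scores than on the DD day after it and *ahr-1* a higher one, which is 5 of 10 probe sets where 47.7% of all tested were called. At 25°C on the WC day *kin-20* and *tim-1* had lower scores than at 15°C at the same hours of the CC day. This is 2 of 11 where 30.2% of all tested were called. The calls of *tim-1* in both comparisons, of *ahr-1* and of *kin-20* at 25°C were each lost when 1 time series was left out.

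**Figure D1:**
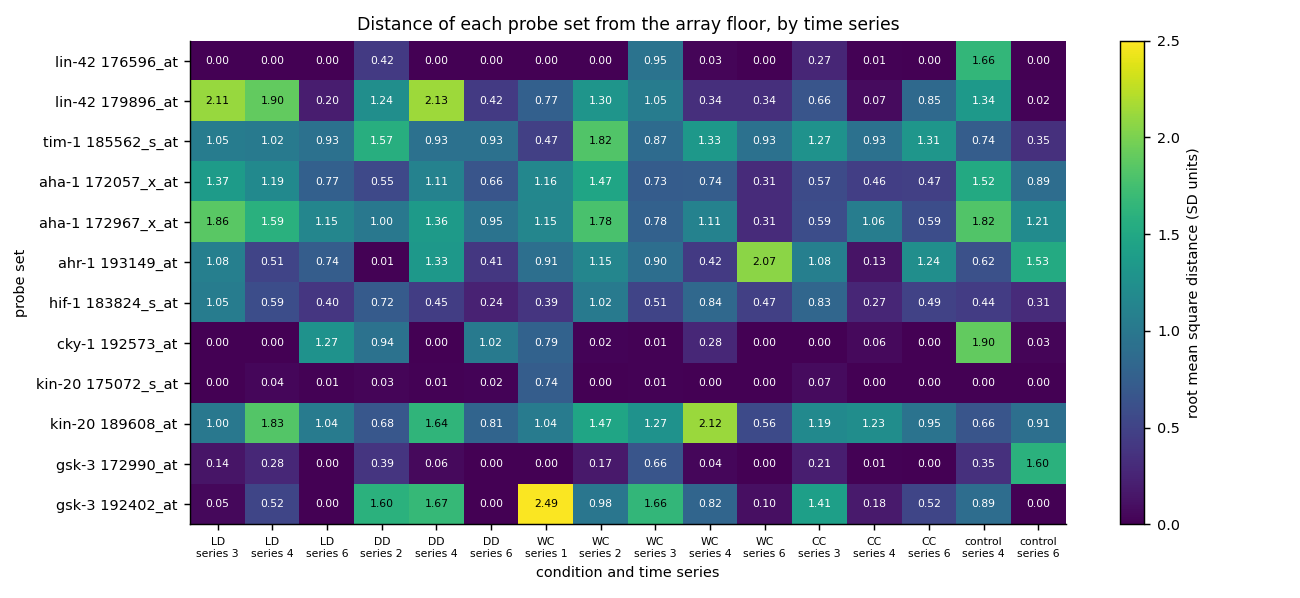
Root mean square distance of each of the 12 probe sets (rows) from the array floor, in SD units, in each of the 16 time series (columns). *lin-42* 176596_at, *cky-1*, *kin-20* 175072_s_at and *gsk-3* 172990_at are near 0 in most time series, while *tim-1*, *aha-1*, *hif-1* and *kin-20* 189608_at leave the floor in all 16.

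How much can be said differed by probe set, as the map of distances from the floor shows. *tim-1*, both *aha-1* probe sets, *hif-1* and *kin-20* 189608_at left the floor in all 16 time series, and only 2 to 13 of their 95 arrays lay within 0.1 of it. *lin-42* 179896_at lay on the floor throughout 2 of 16 time series, *ahr-1* throughout 1 and *gsk-3* 192402_at throughout 4. The other 4 lay on it throughout 12 (*lin-42* 176596_at), 10 (*cky-1*), 13 (*kin-20* 175072_s_at) and 8 (*gsk-3* 172990_at) of 16. Not tested for this reason were *lin-42* 176596_at in LD, *cky-1* in CC, and *kin-20* 175072_s_at in LD, DD, CC and the controls. Where one of these 4 stood more than 1 above the floor, it did so on 1 array of the time series, except *cky-1* in control series 4, which did so on 2.

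**Figure D2:**
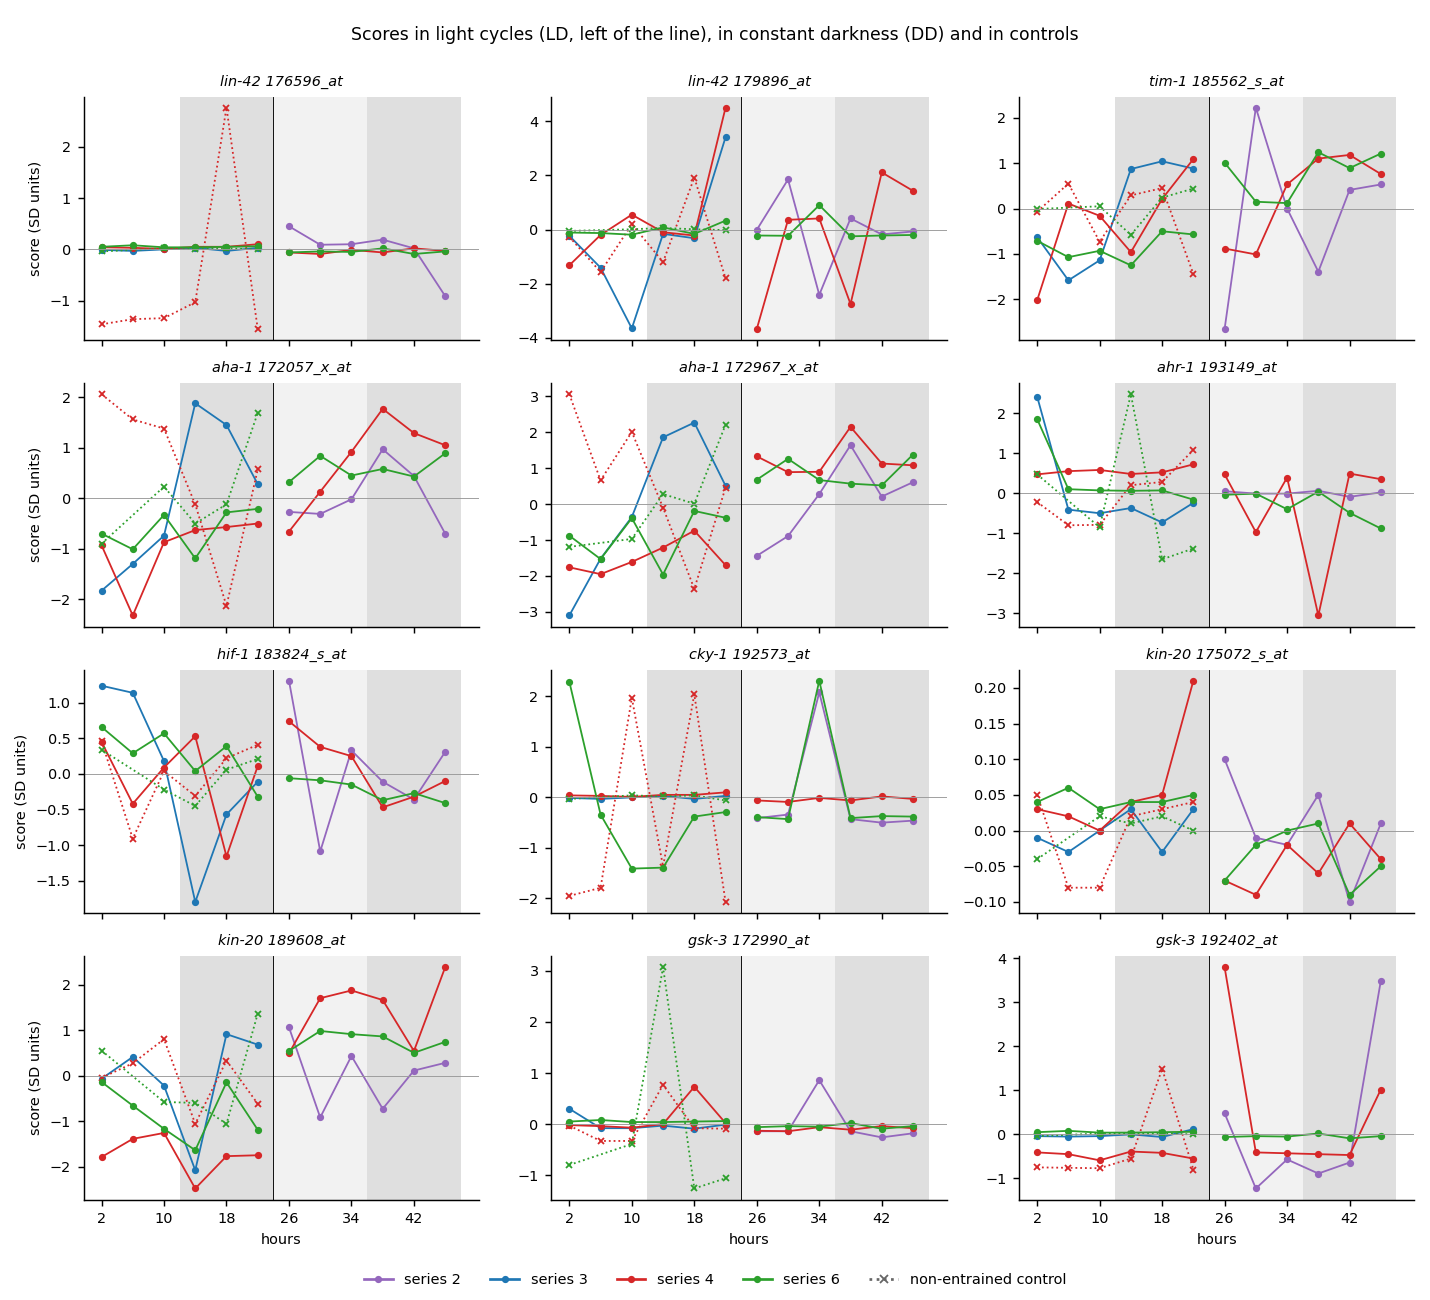
Scores (SD units, each panel on its own axis) of the 12 probe sets against hours, for the LD day (hours 2 to 22, darkness shaded) and the DD day (hours 26 to 46, subjective night shaded darker), 1 line for each time series. The crosses on dotted lines are the controls, which stayed in darkness throughout and are drawn at hours 2 to 22. The 2 *aha-1* panels and *kin-20* 189608_at show series 4 and 6 low in LD and high in DD.

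*lin-42*, the homolog of *period*, had its highest LD scores at the last hour sampled in darkness. At hour 46 of DD 179896_at had -0.07, 1.43 and -0.20 in series 2, 4 and 6. At hour 22 of LD it had scores of 3.41, 4.50 and 0.33 in series 3, 4 and 6, the highest hour of the day in series 3, 4 and 6 alike. Only that hour stood more than 1 above the floor in LD series 3 and 4, and LD series 6 stayed within 0.27 of it. The LD median was -0.20 in the light and -0.10 in the dark. Light minus dark was -2.74, -1.72 and -0.22 in LD series 3, 4 and 6, below 0 in 3 of 3, and -1.56 in the fit (SE 0.60, adjusted p = 0.102 by limma). In the controls the same difference was -0.19 and -0.03. In WC it was -1.19, 0.56, 0.21, 0.24 and -0.33 in series 1, 2, 3, 4 and 6, on both sides of 0. The fitted wave of 179896_at had an amplitude of 1.28 (SE 0.50) with its peak at 21.3 h in LD and of 0.19 (SE 0.53) in DD, and the difference between these waves did not pass (adjusted p = 0.771). The other probe set, 176596_at, stayed between -0.03 and 0.10 on all 18 LD arrays. It stood above the floor by more than 1 on 2 arrays of the 95, at hour 10 of WC series 3 (2.24) and at hour 18 of control series 4 (2.76). The 2 probe sets of *lin-42* had a correlation of 0.28 over the 95 arrays.

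*tim-1*, the homolog of *timeless*, had a lower mean score in the light than in the dark in each LD time series, a difference that did not pass the test. Light minus dark was -2.04, -0.80 and -0.13 in series 3, 4 and 6, and -0.99 in the fit (SE 0.37, adjusted p = 0.0928). In series 3 the groups did not overlap, with -0.63, -1.58 and -1.14 in the light and 0.87, 1.04 and 0.88 in the dark. Over the 3 series they did overlap, with a lowest, median and highest score of -2.02, -0.93 and 0.11 in the light and -1.25, 0.21 and 1.09 in the dark. Subjective day minus night in DD was 0.01, -1.47 and -0.69, and 25°C minus 15°C in WC was 0.30, 1.5, -1.56, 0.31 and -0.91 in series 1, 2, 3, 4 and 6, so that no common direction was seen in either. In the controls it was 0.15 and -0.01. The LD wave had an amplitude of 0.70 (SE 0.26) and a peak at 18.9 h (adjusted p = 0.194).

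*aha-1* encodes the worm ARNT and is the nearest relative of the clock activator CYCLE among these genes. In 1 of its probe sets, 172057_x_at, it had the lowest p-value of these genes for light against dark in LD, without passing. Its 2 probe sets followed each other, with a correlation of 0.90 over the 95 arrays. Both carry the suffix that the manufacturer gives to probe sets with probes shared by other transcripts, so their signal may not be of *aha-1* alone, and the suffix of the *tim-1*, *hif-1* and *kin-20* 175072_s_at probe sets likewise marks a match to more than 1 transcript. Light minus dark for 172057_x_at was -2.50, -0.81 and -0.12 in LD series 3, 4 and 6 (fit -1.14, SE 0.38, adjusted p = 0.0676) and for 172967_x_at -3.21, -0.56 and -0.09 (fit -1.29, SE 0.51, adjusted p = 0.108). Without LD series 3 the difference of 172057_x_at was -0.46. Its lowest, median and highest score were -2.32, -0.93 and -0.33 in the light and -1.19, -0.28 and 1.88 in the dark, so the groups overlapped. The LD wave of 172057_x_at had an amplitude of 0.88 (SE 0.24) with its peak at 17.2 h (adjusted p = 0.0948), and its DD wave 0.54 (SE 0.16) with its peak at 14.9 h (adjusted p = 0.291). Subjective day minus night in DD was -0.43, -1.24 and -0.10, again below 0 in 3 of 3. In CC the difference was -0.67, 0.08 and 0.74 in series 3, 4 and 6, on both sides of 0. The 2 control series went opposite ways, with 2.23 in series 4 and -0.70 in series 6 for 172057_x_at and 2.58 and -1.92 for 172967_x_at. The test of the LD wave against the control wave gave an adjusted p of 0.353 for 172057_x_at, which became 0.014 without control series 6 and ran up to 0.937 over the 12 alternatives.

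Among the kinase genes, *kin-20*, a casein kinase 1 of the DOUBLETIME group, had 1 probe set, 189608_at, that was tested in every condition. Within the LD day 189608_at was lowest at hour 14, the first hour sampled after lights off, in all 3 time series, with -2.08, -2.48 and -1.64 in series 3, 4 and 6. At hour 18 it was 0.91, -1.77 and -0.15, and at hour 38 of DD it was -0.73, 1.66 and 0.86 in series 2, 4 and 6, where it was the lowest of the day in none. Its 24-h wave had an amplitude of 0.46 (SE 0.23) in LD (adjusted p = 0.348) and 0.71 (SE 0.35) in WC (adjusted p = 0.443). In WC, 25°C minus 15°C was 0.45, -0.42, -2.0, -2.95 and 0.01 in series 1, 2, 3, 4 and 6, and -0.98 in the fit (SE 0.46, adjusted p = 0.285). The other probe set, 175072_s_at, lay within 0.1 of the floor on 87 of 95 arrays and stood above it by more than 1 only at hour 14 of WC series 1 (1.53), which does not let the 2 be compared. The 2 had a correlation of 0.04 over the 95 arrays.

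*gsk-3*, the homolog of *shaggy* and a kinase of the Wnt pathway, was read through 2 probe sets that did not follow each other (correlation -0.03 over the 95 arrays). 192402_at had its high arrays at different hours: 3.49 at hour 46 of DD series 2, 3.80 at hour 26 of DD series 4, 3.56 at hour 18 of WC series 3 and 2.09 at hour 22 of WC series 4. It stood more than 1 above the floor on 2 arrays of DD series 4 and on 2 of CC series 3 (highest 2.28). In WC series 1 it was -3.60 at hour 6, 3.09 at hour 14 and 3.55 at hour 18, and 25°C minus 15°C was -4.35 there, against 0.81, -1.26, -0.76 and -0.04 in series 2, 3, 4 and 6 (fit -1.12, SE 0.55, adjusted p = 0.303). In LD it stayed between -0.59 and 0.12 on all 18 arrays. 172990_at lay within 0.1 of the floor on 64 of 95 arrays, and its highest score was 3.07 at hour 14 of control series 6.

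**Figure D3:**
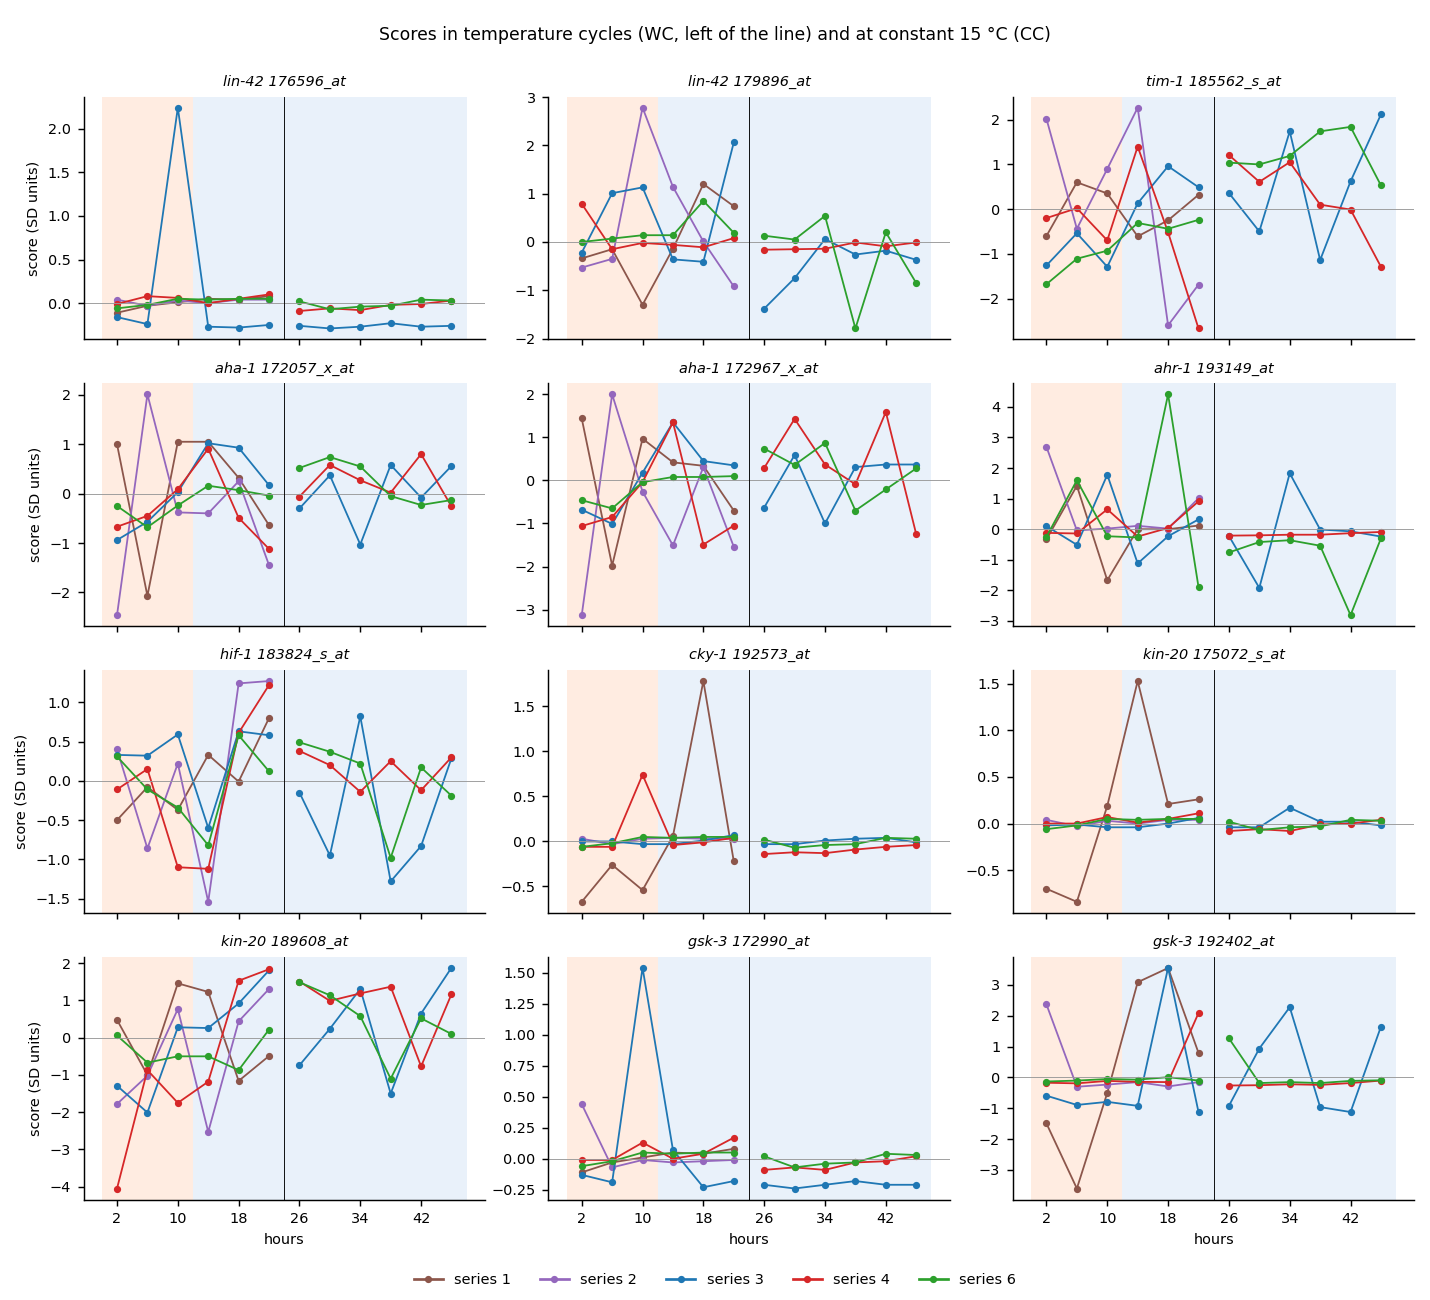
Scores (SD units, each panel on its own axis) of the 12 probe sets against hours, for the WC day (25°C shaded orange, 15°C shaded blue) and the CC day at 15°C (hours 26 to 46), 1 line for each of the 5 WC and 3 CC time series. *hif-1* has low points at hour 14 and higher ones at hours 18 and 22 in 4 of 5 WC series.

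*hif-1*, the oxygen-regulated partner of AHA-1, had the lowest p-value for a 24-h wave of the 8 genes, in WC. Its annotation lists a pair of gene identifiers that share the symbol. At hour 14, the first sampled after the shift to 15°C, the scores were 0.33, -1.54, -0.60, -1.12 and -0.82 in series 1, 2, 3, 4 and 6. At hour 18 they were -0.01, 1.24, 0.63, 0.61 and 0.58, and at hour 22 they were 0.80, 1.27, 0.58, 1.22 and 0.12. Hour 18 lay above hour 14 in every series but series 1. The means over the 5 series were 0.09 ± 0.38, -0.12 ± 0.45, -0.20 ± 0.64, -0.75 ± 0.70, 0.61 ± 0.44 and 0.80 ± 0.48 (SD, n = 5) at hours 2, 6, 10, 14, 18 and 22. The low point and the high points thus both fell within the 15°C period, and 25°C minus 15°C was -0.30 (SE 0.20, adjusted p = 0.504). The fitted WC wave had an amplitude of 0.59 (SE 0.16) and a peak at 22.2 h, with an adjusted p of 0.0568, just outside the threshold. Over the 14 alternative settings that p ran from 0.0122 to 0.281, and 3 of them called it.

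In CC, *hif-1* had means of 0.24 ± 0.34, -0.13 ± 0.72, 0.30 ± 0.49, -0.67 ± 0.81, -0.26 ± 0.52 and 0.13 ± 0.28 (SD, n = 3) at the 6 hours, with hour 38 again the lowest. That low point was -1.28, 0.25 and -0.98 in series 3, 4 and 6. The CC wave had an amplitude of 0.31 (SE 0.18) and a peak at 3.1 h, and it did not differ from the WC wave by the test (adjusted p = 0.348). Under the light conditions the peak came in the early day: 4.4 h in LD (amplitude 0.57, SE 0.22, adjusted p = 0.211) and 3.0 h in DD (0.31, SE 0.17, adjusted p = 0.606). At hour 2 of LD the scores were 1.24, 0.45 and 0.66, and at hour 26 of DD they were 1.31, 0.74 and -0.06, the highest hour of the DD day in each series. Light minus dark was 1.68, 0.21 and 0.47 in LD series 3, 4 and 6 and subjective day minus night was 0.24, 0.75 and 0.25 in DD, above 0 in 3 of 3 on both days, with adjusted p of 0.131 and 0.387. The non-entrained controls gave 0.46 and 0.34 at hour 2 and -0.31 and -0.45 at hour 14, and a wave of 0.38 (SE 0.17) with its peak at 22.2 h (adjusted p = 0.953). The WC and LD waves differed at an unadjusted p of 0.0124, which did not pass after adjustment (0.14).

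Of the steps described in the study's methods, 2 were applied to the scores, neither adjusted over probe sets: an F test over the 6 hours under 0.05, which for 2 joined days is run on the free-running day, and a permutation p under 0.02 for F24, the share of the variance of the joined time series that lies at 24 h. The study's filters on fold change and intensity cannot be computed from scores and were not applied. With these 2 steps *hif-1* was the only one of the 8 genes to pass, and passed in WC alone (F24 0.360, permutation p = 0.0021), where 11.5% of all tested probe sets passed. In the non-entrained controls, with 11 arrays, *hif-1* met the F test step as well. It missed only the permutation step there (F24 0.477, permutation p = 0.0737). In LD, DD and CC its F test gave 0.301, 0.138 and 0.329. The difference between WC and the controls was not tested. Over WC and CC together *hif-1* had an F24 of 0.204 (permutation p = 0.0057), but its F test on the CC day gave 0.329. Over LD and DD together it had an F24 of 0.237 (permutation p = 0.01), and its F test on the DD day gave 0.138. So 0 of 12 member probe sets passed over WC and CC, where 0.488% of all tested did, and 0 of 11 over LD and DD, where 3.76% did. The correlation of the 6 hours of *hif-1* on the free-running day with the same hours on the entrainment day averaged 0.50 over 3 temperature series and 0.54 over 2 light series, and that between LD and the controls was 0.11. The study further asks for a correlation above 0 on the joined days. Of all tested probe sets, 0.362% for temperature and 3.40% for light met this and the 2 steps together. For light it also asks for a negative correlation with the controls, and 1.53% met all of these. *aha-1* 172057_x_at reached a permutation p of 0.0114 in LD (F24 0.409) and 0.0082 over LD and DD (F24 0.250), but its F test over hours gave 0.196 in LD and 0.261 on the DD day. In LD, DD, CC and the controls alone none of the genes passed, with backgrounds of 8.74%, 3.68%, 2.18% and 0.700%.

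*ahr-1*, the aryl hydrocarbon receptor homolog, which acts in neurons, was read mainly through single arrays. In LD it was 2.41 and 1.85 at hour 2 of series 3 and 6, where the other hours lay between -0.73 and 0.10, while series 4 stayed between 0.47 and 0.72 all day. Light minus dark was 0.53 in the fit (SE 0.28, adjusted p = 0.217). In WC its highest scores were 2.69 at hour 2 of series 2 and 4.41 at hour 18 of series 6, and in DD series 2 it stayed between -0.09 and 0.06. *cky-1*, which encodes a bHLH-PAS protein related to mammalian NPAS4, left the floor in 6 of 16 time series and stood more than 1 above it in 5 of them. It peaked at hour 34 of DD in series 2 (2.08) and series 6 (2.31), with all other hours of those 2 series between -0.50 and -0.34, and lay on the floor in DD series 4. In LD series 6 its high array was hour 2 (2.29), in WC series 1 hour 18 (1.78), and in control series 4 hours 10 and 18 (1.97 and 2.04). Its DD wave had an amplitude of 0.58 (SE 0.26) and a peak at 10.0 h (adjusted p = 0.467). The LD and DD waves of *cky-1* differed at an unadjusted p of 0.0335 and did not pass after adjustment (0.604).

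**Figure D4:**
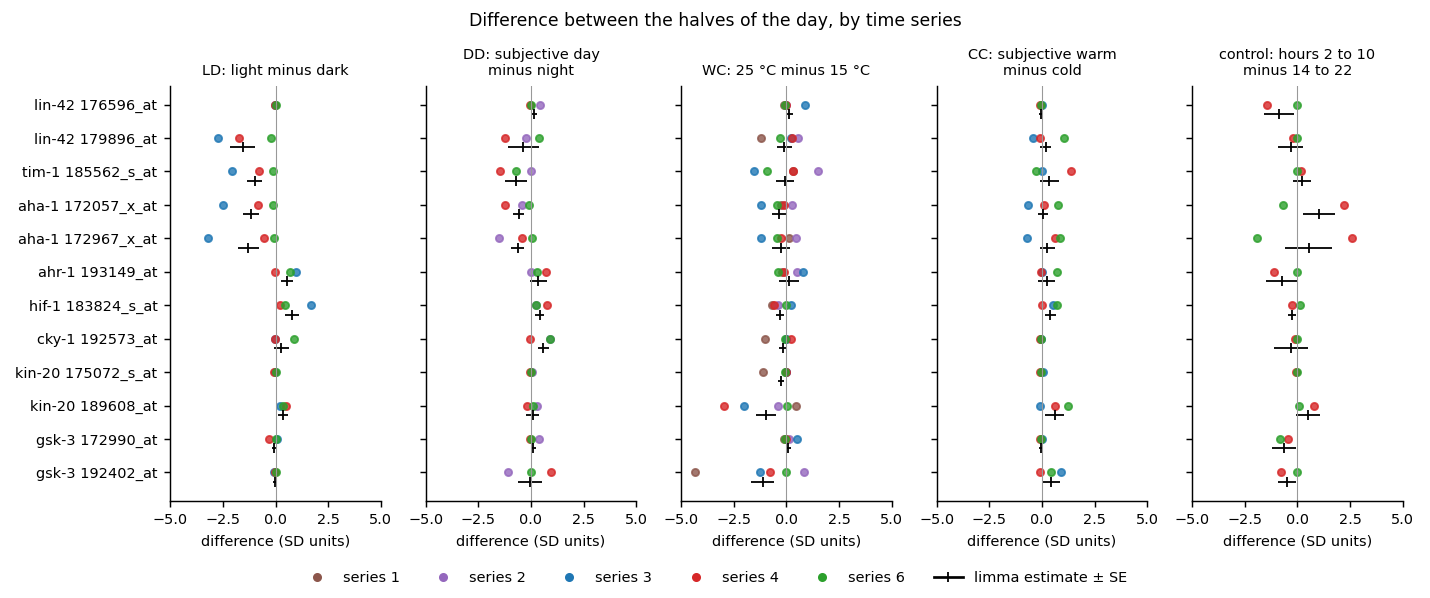
Mean score at hours 2, 6 and 10 minus the mean at hours 14, 18 and 22, in SD units, for each probe set (rows) and condition (panels). Each point is 1 time series, and the black marks are the limma estimate with its SE where the probe set was tested. In LD *lin-42* 179896_at, *tim-1* and *aha-1* lie below 0 and *hif-1* above it in all 3 series, and in the controls the 2 *aha-1* series lie on opposite sides.

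Tests of 1 wave against another called none of these genes: 0 of 11 for LD against DD, where 0.00598% of all probe sets were called, 0 of 12 for WC against CC (3.51%), 0 of 11 for LD against the controls (0%) and 0 of 12 for WC against LD (4.42%). At an unadjusted p under 0.05 there were 2, 0, 1 and 3. Over all tested probe sets there were 1318 of 16733, 3118 of 17410, 1943 of 17095 and 3168 of 17506, in that order. Markers of whole-animal composition also moved between the parts of the LD day. Of 7 embryo probe sets (*pes-10*, *vet-1*, *vet-2*, *vet-6* and *end-1*), 6 were lower in the light, with a median difference of -1.94 beside -0.07 over all probe sets. The root mean square distances of the 7 from the floor ran from 0.81 to 2.32. Their summed score ran from -18.28 to 2.34 in the light and from -2.22 to 10.65 in the dark. All 5 body wall muscle probe sets (*unc-54*, *unc-15* and *myo-3*) were higher in the light (median 1.63), with sums from 0.93 to 8.12 in the light and from -7.95 to 3.30 in the dark. In the controls the embryo sum at hours 2 to 10 ran from 8.25 to 15.05 in series 4 and from -12.81 to -4.38 in series 6, the series in which *aha-1* at hours 2 to 10 minus hours 14 to 22 was above and below 0. At hours 14 to 22 it ran from -13.57 to 4.67 in series 4 and from 0.79 to 17.27 in series 6. Of the other tissue markers tested in LD, 0 of 4 intestine, 0 of 3 germline and 1 of 5 neuron probe sets (*unc-119*, -0.63, SE 0.15, adjusted p = 0.0313) were called. Their median differences were 1.61 for intestine, -0.43 for germline and 0.30 for neurons. The part of these markers in the results for *aha-1*, *tim-1* and *lin-42* was not tested, and in whole animals fewer cells of a type and less RNA per cell cannot be told apart.

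**Figure D5:**
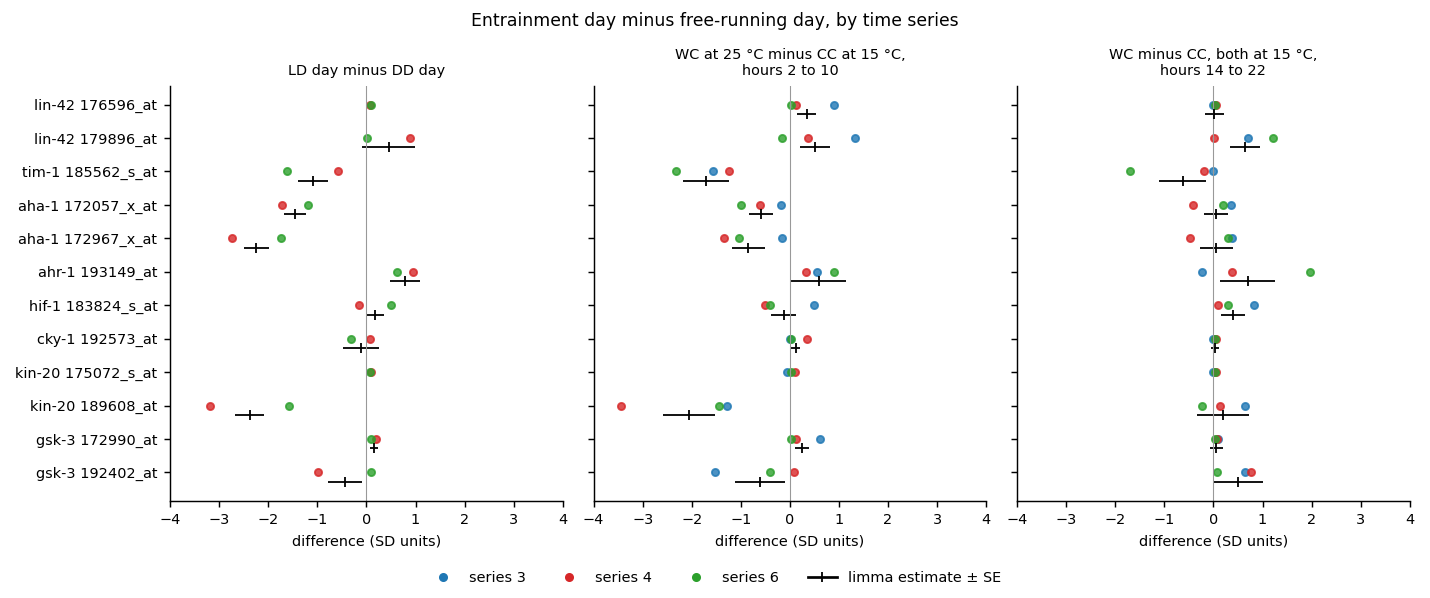
Differences between an entrainment day and the free-running day of the same series, in SD units, for each probe set (rows): LD minus DD over all 6 hours (left), WC minus CC at hours 2 to 10, when WC was at 25°C (middle), and at hours 14 to 22, when both were at 15°C (right). Points are time series and black marks the limma estimate with its SE. *kin-20* 189608_at, both *aha-1* probe sets and *tim-1* lie below 0 on the left, and *kin-20* and *tim-1* in the middle.

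Comparing whole days, the last LD day against the DD day that followed in the same series, gave differences that passed the test where those within a day had not. The scores of the 2 days were centred together in series 4 and 6 only, so only these entered, and a low LD score of a gene goes with a high DD score of the same series. *kin-20* 189608_at had -1.79, -1.39, -1.26, -2.48, -1.77 and -1.75 at the 6 hours of LD series 4, against 0.49, 1.70, 1.87, 1.66, 0.54 and 2.38 in DD series 4. In series 6 it had -0.14, -0.66, -1.17, -1.64, -0.15 and -1.19 in LD, against 0.54, 0.98, 0.91, 0.86, 0.50 and 0.74 in DD. Every LD score lay below every DD score of *kin-20*, and the difference was -2.38 (SE 0.29, adjusted p = 5.49e-06). *aha-1* 172967_x_at did not overlap either, with a lowest, median and highest score of -1.96, -1.37 and -0.19 on the 12 LD arrays and 0.52, 0.99 and 2.15 on the 12 DD arrays (-2.24, SE 0.25, adjusted p = 2.04e-06). *aha-1* 172057_x_at had -2.32, -0.67 and -0.21 in LD and -0.66, 0.71 and 1.77 in DD, with a small overlap (-1.46, SE 0.22, adjusted p = 3.93e-05).

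*tim-1* was lower in LD too, by less and mainly in 1 series. It had a lowest, median and highest score of -2.02, -0.64 and 1.09 in LD and -1.01, 0.82 and 1.24 in DD (-1.09, SE 0.30, adjusted p = 0.00578). LD minus DD was -0.57 in series 4 and -1.61 in series 6, and without series 6 the call was lost (adjusted p = 0.329). *ahr-1* was higher in LD (-0.16, 0.47 and 1.85, against -3.05, -0.03 and 0.49 in DD), by 0.79 (SE 0.31, adjusted p = 0.0473), a call that was lost without series 4 (adjusted p = 0.103) and without series 6 (adjusted p = 0.194). *hif-1* differed by 0.18 (SE 0.17, adjusted p = 0.405), with -0.15 in series 4 and 0.50 in series 6, and was called without series 4 (adjusted p = 0.0306), and *lin-42* 179896_at by 0.45 (SE 0.54, adjusted p = 0.5).

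In all, 5 of 10 tested probe sets of these genes differed between the LD and DD days, 4 lower and 1 higher in LD, where 47.7% of all tested probe sets did (21.3% lower and 26.4% higher), a share near that over the array. Without series 6 there were 3. The p-values rest on the spread between hours within 2 series. The DD animals were also older by a day than the LD animals, and light and age cannot be told apart. Of the embryo probe sets, 5 of 7 were lower and 1 higher in LD (median -1.30, beside 0.13 over all probe sets), with sums from -18.28 to 9.13 in LD and from -9.17 to 12.32 in DD. Of the body wall muscle probe sets 4 of 5 were higher in LD (median 1.33), with sums from -4.29 to 8.12 in LD and from -8.67 to 2.63 in DD, and so were 4 of 4 intestine probe sets. Their part in the differences of *kin-20*, *aha-1* and *tim-1* was not tested.

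*kin-20* and *tim-1* were also lower at 25°C on the WC day than at 15°C at the same hours of the CC day. Within the WC day neither was called for 25°C against 15°C. There the difference was above 0 in 2 of 5 series for *kin-20* 189608_at and in 3 of 5 for *tim-1*. At hours 2 to 10 of series 3, 4 and 6, *kin-20* 189608_at had a lowest, median and highest score of -4.05, -0.87 and 0.28 at 25°C in WC, against -0.74, 1.14 and 1.51 at 15°C in CC (-2.06, SE 0.53, adjusted p = 0.00455). *tim-1* had -1.68, -0.93 and 0.02 at 25°C, against -0.50, 1.04 and 1.74 at 15°C (-1.71, SE 0.47, adjusted p = 0.00795). Both overlapped between temperatures but were lower at 25°C in each of the 3 series, with differences in series 3, 4 and 6 of -1.28, -3.45 and -1.44 for *kin-20* and of -1.56, -1.25 and -2.32 for *tim-1*. At hours 14 to 22, when WC and CC were both at 15°C, *kin-20* differed by 0.19 (SE 0.53, adjusted p = 0.881) and *tim-1* by -0.63 (SE 0.47, adjusted p = 0.419). Whether the difference at 25°C is larger than that at 15°C was tested only through the waves of WC against CC, which gave adjusted p of 0.395 for *kin-20* and 0.901 for *tim-1*.

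*aha-1* ran the same way at 25°C without passing, at -0.85 (SE 0.34, adjusted p = 0.0602) and -0.59 (SE 0.24, adjusted p = 0.0662), and each was called by 4 of 10 alternatives. So 2 of 11 probe sets of these genes were called lower at 25°C, where 30.2% of all tested were called, 16.7% lower and 13.5% higher, and 0 of 11 were called at hours 14 to 22, where 14.2% were. The call of *tim-1* was lost without series 6 (adjusted p = 0.188) and that of *kin-20* without series 4 (adjusted p = 0.071), which left 1 call in each case. Beside it, 5 of 7 embryo probe sets were lower and 1 higher at 25°C (median -2.13), with sums from -16.00 to 0.74 at 25°C and from -4.44 to 14.52 at 15°C. Of the body wall muscle probe sets 2 of 5 were higher at 25°C (median 0.80). Of the germline probe sets 2 of 3 were lower (median -0.66), as was 1 of 5 neuron probe sets, and 0 of 4 intestine probe sets were called. Here too their part was not tested, and CC animals were older than WC animals.

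The genes whose scores followed these most closely over the 95 arrays, among probe sets of 1 gene that left the floor in every condition, are given by Pearson's r as a description, since all scores of an array share its centring and scale. For *hif-1* they were *tmem-184* (0.85), *apl-1* (0.84) and *ncs-2* (0.83), higher than for any other member. For *tim-1* they were *rsa-2* (0.80), *F59E12.1* (0.77) and *lex-1* (0.76), and for *kin-20* 189608_at *stt-3* (0.78), *tbc-12* (0.77) and *F54B11.5* (0.77). For *aha-1* 172967_x_at they were *F58B3.6* (0.77), *cdc-5L* (0.77) and *prp-17* (0.76), and 172057_x_at had *F58B3.6* (0.76), *prp-17* (0.76) and *K04F10.7* (0.75). The likeness was lower for *ahr-1* (*F35A5.1*, 0.63, then *pag-3* and *K02F6.1*, both 0.57), *lin-42* 179896_at (*arrd-13*, 0.56, then *skat-1* and *ptr-2*, both 0.54) and *gsk-3* 192402_at (*hlh-30*, 0.56, then *inf-1* and *let-711*, both 0.55). *gsk-3* 172990_at, mostly on the floor, was led by *C29E4.10* (0.79), *F26A1.3* (0.76) and *C05C9.1* (0.75).

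Genes that work with these members in worms or in other clocks were described from lists. In the light against dark test of LD, which called 6.24% of all tested probe sets higher and 5.26% lower in the light, 2 of 18 probe sets of regulators and targets of HIF-1 were called, both higher in the light: *cysl-1*, which acts upstream of the HIF-1 hydroxylase EGL-9 (0.94, SE 0.12, adjusted p = 0.00892), and the HIF-1 target *nhr-57* (1.19, SE 0.28, adjusted p = 0.0265). The call of *cysl-1* was of 1 of its 2 probe sets. The median of that list was -0.08, beside -0.07 over all probe sets. Of the TIM-1 partners and cohesin genes 1 of 12 was called, *tipn-1*, whose product binds TIM-1, which was lower in the light (-2.02, SE 0.55, adjusted p = 0.0403), as *tim-1* ran without passing. Of the Wnt pathway genes 4 of 22 probe sets were lower and none higher, among them the kinase gene *mom-4* (-1.06, SE 0.24, adjusted p = 0.0244), *hmp-2*, which encodes a beta-catenin (-0.74, SE 0.18, adjusted p = 0.0306), and *dsh-2*, a dishevelled gene (-0.57, SE 0.16, adjusted p = 0.0466), with a list median of -0.48.

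Of 24 tested probe sets of heterochronic genes, which time larval development as *lin-42* does, 3 were higher and 1 lower in the light. They were *hbl-1* (2.96, SE 0.51, adjusted p = 0.0141), *blmp-1* (2.17, SE 0.62, adjusted p = 0.0436) and *alg-1* (1.47, SE 0.43, adjusted p = 0.0488), higher, and *alg-2* (-1.12, SE 0.27, adjusted p = 0.0292), lower. Each call was of 1 probe set. *hbl-1*, *blmp-1* and *alg-2* have 2 tested probe sets each and *alg-1* has 3, and their others were not called. *alg-1* and *alg-2* encode Argonautes of the miRNA pathway. Of the bZIP and nuclear receptor genes related to clock output factors, 1 of 6 was called, *atf-2* (2.78, SE 0.42, adjusted p = 0.0119), higher in the light. The 18 probe sets of other clock kinases, phosphatases and the ubiquitin ligase gene *lin-23* held no call in LD or in WC, nor did *hlh-34*, the other bHLH-PAS gene listed. In WC no probe set of these lists was called for 25°C against 15°C, where 3.84% of all tested probe sets were. The 24-h wave in WC was called for 3 of 18 probe sets of HIF-1 regulators and targets and 1 of 26 of heterochronic genes, beside 6.29% of all tested. In LD that wave was called for 1 of 6 bZIP and nuclear receptor and 1 of 18 HIF-1 probe sets, beside 1.00% of all tested, and for none of the other lists of partner genes. Lower in LD than in DD were 14 of 24 heterochronic, 12 of 22 Wnt pathway, 11 of 18 kinase and phosphatase, 7 of 18 HIF-1 and 6 of 12 TIM-1 and cohesin probe sets, beside 21.3% of all tested, and 1 of 5 bZIP and nuclear receptor probe sets, of which 2 more were higher in LD. Lower at 25°C than at 15°C at hours 2 to 10 were 12 of 26, 15 of 22, 6 of 18, 8 of 18 and 8 of 12 of these first 5 lists, in that order, and 2 of 5 bZIP and nuclear receptor probe sets, beside 16.7% of all tested. *hlh-34* was called in neither comparison. The embryo and muscle markers given above moved in the same comparisons, and their part in these counts was not tested.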

How the data were processed

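Whole adult N2 animals were hybridised to Affymetrix *C. elegans* Genome Arrays. The deposited values are scores: the authors background-corrected and summarised the probes with GCRMA in R 2.7.1, took log2 intensities relative to the mean of the time series and set each array to mean 0 and SD 1. Levels and fold changes are therefore lost, and a score depends on what else changed on its array. The number of arrays limits the precision.

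The table holds 22625 probe sets, and the 77 that are array controls were not used. The floor of an array is the median of its densest 5% of scores. The fits used limma 3.58.1 (R 4.3.3), with a term for the time series: cosine and sine of 24 h, hours 2 to 10 minus 14 to 22 from a 6-level hour factor, condition by wave terms, and day against day in series with both days. Adjusted p are Benjamini-Hochberg values over all probe sets of a fit. The p of F24 was taken from 10000 permutations of the time points. Scripts were tested on simulated data. All member probe sets are named. Of the lists, genes called for light against dark in LD or 25°C against 15°C in WC are named, at most the 4 with the lowest adjusted p. The members and lists were chosen with earlier results of these data known, and the floor filter was kept from that earlier work. Genes with no probe set of their own symbol were not analysed here, and no sequences were used here. The genome build behind the probe annotation is not given in the sources used here.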

Additional observations from a re-analysis of the deposited data

Results flagged for a closer look

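In WC, the condition with 5 time series, 84 sets of 5 values were searched for a value far from the other 4 by Dixon's criterion (12 differences and 72 hours), and 24 held one, where chance gives about 1 in 20. Most of them belong to probe sets near the floor, where 1 array stands out from values near 0. For 25°C minus 15°C, *lin-42* 176596_at was 0.88 in series 3 (others -0.10 to -0.00), *cky-1* was -1.03 in series 1 (others -0.06 to 0.21) and *kin-20* 175072_s_at was -1.12 in series 1 (others -0.06 to -0.01). *lin-42* 176596_at in series 3 was 2.24 at hour 10, -0.27 at hour 14, -0.28 at hour 18 and -0.25 at hour 22. *cky-1* in series 1 was -0.67 at hour 2, -0.26 at hour 6, 1.78 at hour 18 and -0.22 at hour 22. *kin-20* 175072_s_at in series 1 was -0.70 at hour 2, -0.84 at hour 6, 1.53 at hour 14 and 0.21 at hour 18.

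*gsk-3* 172990_at was 0.44 at hour 2 of series 2, 1.54 at hour 10 of series 3 and -0.23 at hour 18 of series 3. *gsk-3* 192402_at, in series 1, was -3.60 at hour 6 (others -0.89 to -0.10) and 3.09 at hour 14 (others -0.92 to -0.07). *ahr-1* was 2.69 at hour 2 of series 2 (others -0.33 to 0.10) and 4.41 at hour 18 of series 6 (others -0.23 to 0.04). *aha-1* 172967_x_at was -1.49 at hour 18 of series 4 (others 0.08 to 0.45), and *kin-20* 189608_at was -2.01 at hour 6 of series 3 (others -1.02 to -0.67). Hours 2 to 10 minus 14 to 22 were also set side by side over every pair of the 5 conditions, in 102 comparisons of a probe set, for a difference above 0 in every series of 1 condition and below 0 in every series of the other. The 1 such case was *ahr-1*, with 0.01, 0.70 and 0.29 in DD series 2, 4 and 6 (mean 0.33), against -1.12 and -0.01 in control series 4 and 6 (mean -0.57). It rests on values near 0 in DD series 2, where all 6 arrays lay within 0.1 of the floor, and in control series 6. The difference between DD and the controls was not tested.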

How the results depend on the processing

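Of 198 alternatives for 17 counts of member probe sets called, 183 left the count unchanged or within 1.5 times. Without the replicate block (no term for the time series), the 24-h count in WC was 1 in place of 0 (*hif-1*, adjusted p = 0.0356), as it was with rank scores and with 2 steps of the study's procedure (F test over hours and permutation p for F24). A single fit over all arrays gave 3 there, 3 for light against dark in LD and 2 for the 24-h wave in the controls, where separate fits gave 0. The series numbers name time series from which all hours come, and no other pairing was used. LD against control waves gave 0 to 1 call when 1 series was left out. LD minus DD gave 8 calls without the floor filter, which adds probe sets at the floor, and 3 to 5 without 1 series. 25°C minus 15°C gave 4 with rank scores, 4 without the arrays of 2 biological replicates, 4 on a common unit and 1 without the 2 of its arrays that have a high relative SD, the last 2 chosen after seeing the data, and 1 to 3 without 1 series. The cause of these changes was not tested.

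Of 2074 alternatives for 186 single values, 29 turned the direction, none of them of a called value. Without the arrays of high relative SD these were *tim-1* in WC (0.17) and, in the controls, *lin-42* 179896_at (0.21), *aha-1* 172967_x_at (-0.20) and *cky-1* (0.26), all for hours 2 to 10 minus 14 to 22. Without the arrays of 2 biological replicates, *lin-42* 179896_at (-0.06) and *gsk-3* 192402_at (-0.05) turned in CC, and *aha-1* 172967_x_at (-0.03) in WC minus CC at hours 14 to 22, where rank scores turned *lin-42* 176596_at (-0.03) and *cky-1* (-0.01). Leaving out 1 series gave, for hours 2 to 10 minus 14 to 22 in DD, -0.74 to 0.07 for *lin-42* 179896_at, -0.03 to 0.20 for *kin-20* 189608_at and -0.55 to 0.47 for *gsk-3* 192402_at. In WC it gave -0.27 to 0.17 for *lin-42* 179896_at, -0.47 to 0.30 for *tim-1*, -0.05 to 0.24 for *ahr-1* and -0.28 to 0.03 for *cky-1*. In CC it gave -0.27 to 0.47 for *lin-42* 179896_at, -0.15 to 0.68 for *tim-1*, -0.30 to 0.41 and -0.04 to 0.74 for *aha-1* 172057_x_at and 172967_x_at, and -0.03 to 0.35 for *ahr-1*. For *hif-1* it gave -0.15 to 0.50 in LD minus DD and -0.45 to 0.05 in 25°C minus 15°C. At hours 14 to 22 it gave -0.11 to 0.28 and -0.09 to 0.33 for *aha-1* 172057_x_at and 172967_x_at and -0.04 to 0.40 for *kin-20* 189608_at. With 1 control series left, hours 2 to 10 minus 14 to 22 leaves no residual degrees of freedom, so that alternative gave no value in the controls.

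The scores are of whole animals and do not resolve single tissues. At the floor they do not tell an undetected probe set from one whose level was steady. With 2 to 5 series a condition the number of arrays limits the precision.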
